A study of Mus musculus with 5 samples.

Results

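The transcription factors Sox7, Sox17, Sox18, Klf2, Klf4, Erg, Ets1, Fli1 and Foxq1 are described here as a group, 9 of the 25655 genes counted in injured mouse retinas. They were taken by gene symbol, and were chosen with their fold changes in this comparison of Sorbinil with DMSO already known. The counts, fold changes and group separations below are therefore descriptions and carry no test. All 9 passed the filter on low counts, which kept 14992 genes. Total RNA was sequenced from whole retinas of C57BL/6 wildtype mice, 8 to 10 weeks old, taken 7 days after optic nerve crush (ONC) of the left eye. Mice were injected intraperitoneally from the day before ONC and daily afterwards, either with Sorbinil, an inhibitor of aldose reductase, at 10 mg/kg or with the vehicle DMSO. Of the mice analysed, 3 were given DMSO (numbered 1 to 3) and 2 were given Sorbinil (numbered 1 and 3). The paper states that 1 Sorbinil replicate was excluded after a principal component analysis of its mapped reads. The counts hold no Sorbinil retina number 2. Every retina carried the injury and no uninjured retina is part of the comparison. A whole retina holds neurons, glia, microglia and blood vessels, so that in these bulk samples fewer endothelial cells and less RNA per endothelial cell cannot be told apart.

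Endothelial cells line the retinal vessels and hold the inner blood-retina barrier. Their identity is kept by a small network of transcription factors. ETS factors such as Erg and Fli1 bind enhancers of most endothelial genes, the SoxF factors Sox7, Sox17 and Sox18 act with them in arterial and barrier vessels, and Klf2 and Klf4 are switched on by blood flow through the ERK5 kinase and MEF2 factors. Foxq1 is a forkhead factor that is enriched in endothelium of the brain and retina. Klf4 and Ets1 are also used by other cell types, so that their RNA in a whole retina need not come from vessels alone.

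Counts per retina totalled between 56096541 and 90288552. Values are given as CPM, counts scaled to library size after TMM normalization, and log2 differences of a single retina are log2 CPM (prior count 2) minus the mean of the 3 DMSO retinas. A gene was called when edgeR's quasi-likelihood test gave it an unadjusted p-value of 0.1 or less and a change of 2-fold or more, which is the threshold of the study. At an adjusted p-value under 0.05 the same test called 0 of 14992 genes, with a smallest adjusted p-value of 0.758. By that test 751 genes had an unadjusted p-value under 0.05, about as many as evenly spread p-values would give over 14992 genes. The DESeq2 Wald test called 21 genes at an adjusted p-value under 0.05, none of them one of the 9 factors. Sorbinil 1 stood apart from the other 4 retinas. In it 2605 genes (17.4% of those tested) lay at least 2-fold below the DMSO mean, compared with 137 genes (0.914%) in Sorbinil 3. The values of the 9 factors are therefore given for both Sorbinil retinas, while some other genes and lists are given by group only.

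The promoters of Klf2, Klf4 and Erg are shown because windows were available for these factors only. Each window holds 250 bases before and 50 bases after a transcript start, from RefSeq on GRCm38.p6. The table used held windows of 3 of the 9 factors, and those of Sox7, Sox17, Sox18, Ets1, Fli1 and Foxq1 are not printed. Capitals mark the motifs found on either strand among AGGAAG and CCGGAA (ETS), AACAAT (Sox), CACCC (KLF), GTAAACA (forkhead), CTATTTA (MEF2) and AACAGGAA (FOX:ETS), and a MEF2 box, CTA and TAG with 4 bases between them, that was added after the sequences had been read. AACAGGAA and AGGAAG can overlap where a G follows. The Klf2 window is chr8:72318812-72319111 on the plus strand, the Klf4 window chr4:55532426-55532725 on the minus strand, and the Erg window, the start nearest the 3′ end of 3 listed starts, chr16:95459299-95459598 on the minus strand.
Klf2: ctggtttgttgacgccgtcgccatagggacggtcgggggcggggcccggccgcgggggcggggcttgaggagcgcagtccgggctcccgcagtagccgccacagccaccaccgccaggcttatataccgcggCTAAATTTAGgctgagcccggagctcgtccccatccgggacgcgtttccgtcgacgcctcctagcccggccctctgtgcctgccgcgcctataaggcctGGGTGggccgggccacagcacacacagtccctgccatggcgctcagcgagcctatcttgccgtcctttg
Klf4: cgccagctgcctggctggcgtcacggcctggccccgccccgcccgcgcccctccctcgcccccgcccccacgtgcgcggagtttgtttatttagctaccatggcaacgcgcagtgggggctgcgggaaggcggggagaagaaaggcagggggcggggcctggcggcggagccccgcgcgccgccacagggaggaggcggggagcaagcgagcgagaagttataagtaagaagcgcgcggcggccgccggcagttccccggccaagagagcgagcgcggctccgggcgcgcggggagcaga
Erg: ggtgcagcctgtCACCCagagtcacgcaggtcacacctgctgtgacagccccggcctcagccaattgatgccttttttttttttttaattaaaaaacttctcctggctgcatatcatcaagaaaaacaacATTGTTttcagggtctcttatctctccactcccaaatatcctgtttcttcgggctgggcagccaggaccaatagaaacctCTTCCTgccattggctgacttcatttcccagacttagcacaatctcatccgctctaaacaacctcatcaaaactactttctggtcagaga
The Klf2 window held a MEF2 box at position -118 from the start and CACCC on the opposite strand at -19. The Klf4 window held none of these letters. The Erg window held AGGAAG and AACAAT on the opposite strand at -40 and -120 and CACCC on the same strand at -238. It was chosen for print because it held the most of these motifs. Of the other listed Erg starts, 1 held CACCC alone and the other held none, so that neither held an ETS or Sox motif. Of all 32851 windows of this length, 3.69% held the MEF2 box, 57.5% CACCC, 35.4% AGGAAG, 14.9% CCGGAA, 10.7% AACAAT, 3.65% GTAAACA, 2.91% CTATTTA and 2.65% AACAGGAA. A match is a string of letters and was not shown to be bound, and a window without one says nothing of the factor. GC content was 69.3% in the Klf2 window and 74.3% in the Klf4 window, against a median of 52.7% over all windows.

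Among the 9 factors, Klf2 had the highest level per length of exon in DMSO retinas and Sox7 the lowest. On the scale of CPM per kilobase of exon, the DMSO means were 1.69 ± 0.65 for Klf2, 0.790 ± 0.096 for Sox18, 0.625 ± 0.128 for Fli1 and 0.510 ± 0.082 for Ets1 (SD, n = 3). Klf4 followed with 0.392 ± 0.033, Foxq1 with 0.333 ± 0.015 and Erg with 0.240 ± 0.060. Sox17 had 0.196 ± 0.027 and Sox7 0.0965 ± 0.0123. The order was the same in each of the 3 DMSO retinas, although the ranges of neighbours overlapped for Fli1 and Ets1, for Ets1 and Klf4, and for Erg and Sox17. In Sorbinil 3 the first 6 kept this order and the last places were taken by Sox7, Sox17 and Erg, with 0.111, 0.102 and 0.0763 CPM per kilobase. In Sorbinil 1 Klf2 stayed first with 0.365 and Fli1 came second with 0.248, while Erg with 0.0219 and Sox17 with 0.0107 came last, below Sox7 with 0.0716. All of these are low levels, and the 9 factors had between 3 and 458 counts in any retina.

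**Figure D1:**
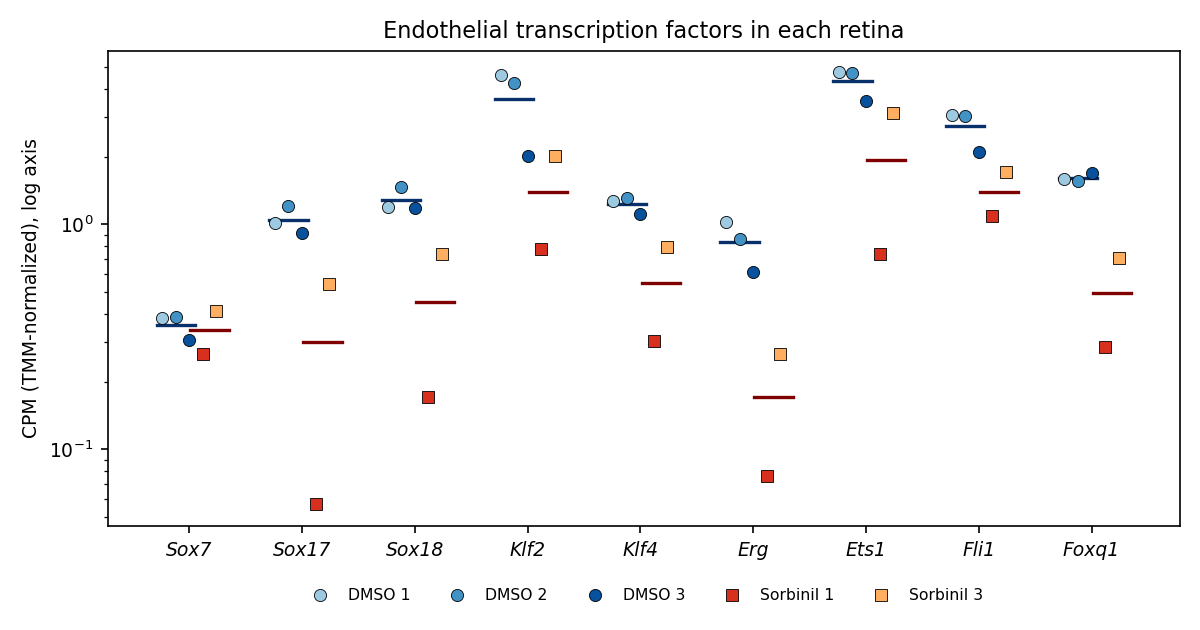
Expression of the 9 factors in each retina, in CPM after TMM scaling on a log axis. Circles are the 3 DMSO retinas, squares the 2 Sorbinil retinas and bars the group means. For every factor Sorbinil 1 is the lowest square, from 0.0571 CPM for Sox17 to 1.08 CPM for Fli1, and for Sox7 and Klf2 the groups overlap.

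Within the SoxF factors, Sox17 and Sox18 lay below every DMSO retina in both Sorbinil retinas, where 10.5% of all genes did, and Sox7 did not. Sox17, which acts in arterial identity and in barrier vessels, had 1.01, 1.20 and 0.918 CPM in DMSO 1, 2 and 3 and 0.0571 and 0.545 CPM in Sorbinil 1 and 3. The value of Sorbinil 1 rests on 3 counts, with an exact Poisson 95% interval of 0.0118 to 0.167 CPM that covers counting error only. Sorbinil 1 was far below the rest and Sorbinil 3 sat between it and the DMSO retinas, without overlap. The fitted log2 fold change was -1.75 (SE 0.78), and the retinas stood at 5.47% and 52.2% of the DMSO mean. It was -0.93 without Sorbinil 1 and -4.15 without Sorbinil 3. Sox17 (ENSMUSG00000025902) lies on GRCm39 chr1:4561151-4567784, minus strand, and shares 1011 exon bases with the opposite-strand lncRNA Gm37587, which has no row in the count table.

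Sox18, which drives lymphatic and vascular development, had 1.20, 1.46 and 1.19 CPM in DMSO retinas and 0.171 and 0.737 CPM in Sorbinil 1 and 3. Both Sorbinil retinas were below all DMSO retinas. The interval of Sorbinil 1, from 9 counts, was 0.0783 to 0.325 CPM. Its log2 fold change was -1.47 (SE 0.60), -0.79 without Sorbinil 1 and -2.89 without Sorbinil 3. Sox18 (ENSMUSG00000046470, chr2:181311629-181313438, minus strand) shares 420 exon bases with the opposite-strand lncRNA Gm74574, which has no row in the table either.

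Sox7, the third SoxF gene, can stand in for the other two in vessels. It had 0.383, 0.388 and 0.306 CPM in DMSO retinas and 0.266 and 0.413 CPM in Sorbinil 1 and 3. Sorbinil 3 was the highest of the 5 retinas and Sorbinil 1 the lowest, so that the groups overlapped. The log2 fold change was -0.08 (SE 0.38), and without Sorbinil 1 it was 0.20. Within single retinas, counts of Sox17 were 2.65, 3.10 and 3.00 times those of Sox7 in DMSO 1, 2 and 3, but 0.214 and 1.32 times in Sorbinil 1 and 3. For Sox18 the ratios to Sox7 were 3.14, 3.77 and 3.88 in DMSO retinas and 0.643 and 1.79 in Sorbinil retinas. Sox7 thus made up 14.7%, 12.7% and 12.7% of the counts of the 3 SoxF genes in DMSO retinas and 53.8% and 24.3% in Sorbinil retinas. These ratios are taken within a library and do not depend on its scaling, but in Sorbinil 1 they rest on 14, 3 and 9 counts of Sox7, Sox17 and Sox18. Sox7 (ENSMUSG00000063060) lies on chr14:64181006-64188352, plus strand.

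Both Klf factors were lower in Sorbinil 1 than in any other retina. Klf2, the main flow-induced factor of quiescent endothelium, had 4.60, 4.23 and 2.02 CPM in DMSO 1, 2 and 3 and 0.780 and 2.02 CPM in Sorbinil 1 and 3. DMSO 3 and Sorbinil 3 had nearly the same value, DMSO 3 being the lower of the pair, so that the groups overlapped. The log2 fold change was -1.36 (SE 0.55), and the DMSO mean of 3.62 ± 1.40 CPM had the widest spread of the 9 factors. Without DMSO 3 the log2 fold change was -1.65, without Sorbinil 1 it was -0.84 and without Sorbinil 3 it was -2.22. Klf2 (ENSMUSG00000055148, chr8:73072726-73075502, plus strand) lies opposite Eps15l1 and shares 0 exon bases with it. Eps15l1 had between 3640 and 6084 counts per retina, against 41 to 445 for Klf2, and no source says whether strand was used in counting.

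Klf4, which shares many targets with Klf2, had 1.27, 1.31 and 1.12 CPM in DMSO retinas and 0.304 and 0.796 CPM in Sorbinil retinas. The DMSO values were close together and both Sorbinil values lay below them. The log2 fold change was -1.15 (SE 0.46), and it was -0.62 without Sorbinil 1 and -2.01 without Sorbinil 3. The ratio of Klf2 to Klf4 counts was 3.62, 3.22 and 1.81 in DMSO retinas and 2.56 and 2.54 in Sorbinil retinas, inside the DMSO range. Klf4 (ENSMUSG00000003032) lies on chr4:55527139-55532528, minus strand.

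All 3 ETS factors were below every DMSO retina in both Sorbinil retinas, where 10.5% of all genes were. Erg had the largest fitted difference of the 9 factors. Erg, which keeps endothelial junction genes active, had 1.02, 0.863 and 0.612 CPM in DMSO 1, 2 and 3 and 0.0761 and 0.265 CPM in Sorbinil 1 and 3. The interval of Sorbinil 1, from 4 counts, was 0.0207 to 0.195 CPM, and Sorbinil 3 too lay well below the lowest DMSO retina. The log2 fold change was -2.24 (SE 0.59), with the Sorbinil retinas at 9.14% and 31.8% of the DMSO mean. It was -1.65 without Sorbinil 1 and -3.43 without Sorbinil 3. Erg (ENSMUSG00000040732) spans chr16:95160028-95387452 on the minus strand with 13 exon blocks.

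Ets1 and Fli1 showed smaller differences. Ets1, an angiogenic factor that is also high in lymphocytes, had 4.74, 4.72 and 3.53 CPM in DMSO retinas and 0.742 and 3.12 CPM in Sorbinil 1 and 3. Sorbinil 3 was close under DMSO 3 and Sorbinil 1 far below it, at 72.2% and 17.1% of the DMSO mean. The log2 fold change was -1.15 (SE 0.59), -0.46 without Sorbinil 1 and -2.54 without Sorbinil 3. Fli1, which is also expressed in blood cells and microglia, had 3.07, 3.04 and 2.09 CPM in DMSO retinas and 1.08 and 1.71 CPM in Sorbinil retinas. Its log2 fold change of -0.97 (SE 0.34) stayed just under 2-fold, with the Sorbinil retinas at 39.7% and 62.5% of the DMSO mean and both below DMSO 3. Fli1 (ENSMUSG00000016087, chr9:32333500-32454157, minus strand) and Ets1 (ENSMUSG00000032035, chr9:32547517-32669116, plus strand) are neighbours that point away from each other, 93359 bases apart, with 3 annotated genes and 0 protein-coding genes between them. Fli1 shares 123 exon bases with the opposite-strand lncRNA Gm69055, which has no row in the table.

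Foxq1 was the most even of the 9 factors among DMSO retinas. It had 1.59, 1.55 and 1.69 CPM in DMSO 1, 2 and 3 and 0.285 and 0.707 CPM in Sorbinil 1 and 3. Both Sorbinil retinas were at least 2-fold below every DMSO retina. The log2 fold change was -1.68 (SE 0.44), and -1.17 without Sorbinil 1. It was the only factor whose lowest DMSO value was not in DMSO 3. Foxq1 (ENSMUSG00000038415) is a gene of 1 exon block on chr13:31740117-31744959, plus strand, and shares 118 exon bases with the opposite-strand lncRNA 1700018A04Rik, which has no row in the table.

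Over the group, 6 of the 9 factors (Sox17, Sox18, Klf2, Klf4, Erg and Foxq1) were called lower, where 1.35% of all tested genes were, and 0 were called higher, where 0.36% of all genes were. Both Sorbinil retinas lay below every DMSO retina for 7 factors, all but Sox7 and Klf2, against 10.5% of all genes, and above every DMSO retina for 0, against 12.8% of all genes. Since the factors were chosen on this comparison, nothing is read from these shares. In Sorbinil 1, 8 factors were at least 2-fold below the DMSO mean (17.4% of all genes), and in Sorbinil 3 only Erg and Foxq1 were (0.914% of all genes). All 9 were lower in Sorbinil 1 than in Sorbinil 3. The medians of the log2 differences were -2.39 in Sorbinil 1 and -0.74 in Sorbinil 3, and the median log2 fold change was -1.36 against -0.01 over all genes. Just inside the threshold lay Klf4, with a log2 fold change of -1.15, and just outside it Ets1, also at -1.15 but with a wider error, and Fli1 at -0.97.

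**Figure D2:**
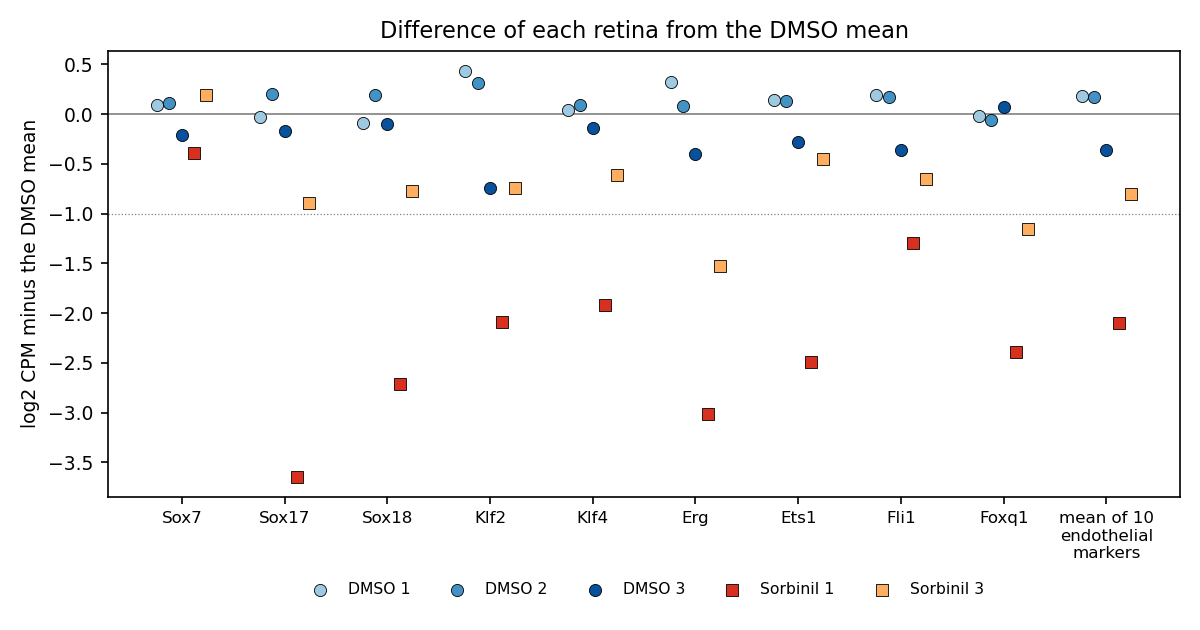
Log2 CPM of each retina minus the mean of the 3 DMSO retinas, for the 9 factors and for the mean of 10 endothelial marker genes. Circles are DMSO and squares Sorbinil retinas, and the dotted line marks 2-fold lower. Sorbinil 1 is under this line for all factors but Sox7, while Sorbinil 3 is under it for Erg and Foxq1.

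Erg and Foxq1 were called lower in each fit that left out 1 DMSO retina. Erg rested on 4 counts in Sorbinil 1 and had no value with at least 10 counts in every retina. The factors were chosen on these same retinas, so the repeated calls of Erg and Foxq1 are a description and no support. Without Sorbinil 1 these 2 factors were called lower (0.912% of all genes), and without Sorbinil 3, 8 factors were (17.4% of all genes). Without DMSO 1, Sox18, Erg and Foxq1 were called (0.867% of all genes), without DMSO 2 Erg and Foxq1 (0.894%), and without DMSO 3 Sox18, Klf2, Klf4, Erg, Fli1 and Foxq1 (1.51%). In these fits a lone Sorbinil retina is assumed to vary like the DMSO group.

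The factors were next set against endothelial markers of the same retina, since a bulk level moves with the share of vessel RNA. The 10 markers, among them Cdh5, Tie1, Cldn5 and Pecam1, had a mean log2 difference of 0.18, 0.17 and -0.36 in DMSO 1, 2 and 3 and of -2.10 and -0.80 in Sorbinil 1 and 3. They were thus low in the same retinas as the factors. Relative to them the median log2 difference of the 9 factors between the groups was -0.02, and its sign was not stable. It was 0.02 with a prior count of 0.5 and 0.06 without Sorbinil 1, but -0.29 without Sorbinil 3, -0.50 when the markers were summed as CPM, and -0.60 against pericyte and smooth muscle markers.

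Single factors differed in this ratio. Erg had log2 ratios of 0.14, -0.09 and -0.04 in DMSO retinas and -0.92 and -0.72 in Sorbinil 1 and 3. Foxq1 had -0.20, -0.23 and 0.43 in DMSO retinas and -0.29 and -0.35 in Sorbinil retinas. Erg and Foxq1 were the 2 factors below every DMSO retina in both Sorbinil retinas on this scale, Foxq1 only narrowly. The share of all genes on this scale was not computed. Sox7, with 1.71 and 1.00 in Sorbinil retinas against at most 0.15 in DMSO retinas, and Fli1, with 0.81 and 0.16 against at most 0.01, were above every DMSO retina. Sox17 was low in Sorbinil 1 alone, with -1.54 there and -0.09 in Sorbinil 3. For Klf2 and Klf4 the Sorbinil values, between 0.01 and 0.19, lay inside the range of the DMSO retinas.

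**Figure D3:**
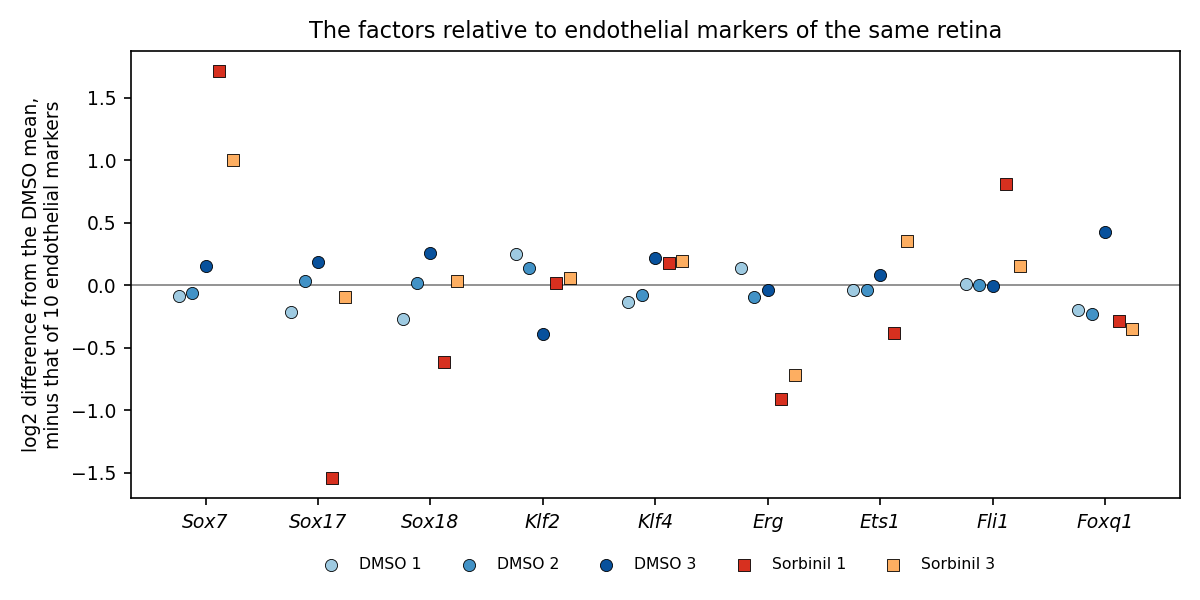
Log2 difference of each factor from its DMSO mean, minus the mean log2 difference of 10 endothelial markers in the same retina. Circles are DMSO and squares Sorbinil retinas. Erg and Foxq1 have both squares below all circles, Sox7 and Fli1 both above, and the squares of Klf2 and Klf4 lie among the circles.

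The other genes of the same families gave few calls. Of 66 tested among 93 other Sox, Klf, ETS and Fox genes, 2 were called lower and 0 higher, against 1.35% and 0.36% of all genes. Both were forkhead genes. Foxf2, a factor of pericytes and barrier vessels, had 1.10 ± 0.39 CPM (SD, n = 3) in DMSO and 0.330 ± 0.305 CPM (SD, n = 2) in Sorbinil retinas, and Foxl2 had 0.286 ± 0.047 and 0.0463 ± 0.0386 CPM. Foxf2 lost its call without DMSO 1 and without DMSO 2. The edgeR adjusted p-values of Foxf2 and Foxl2 were at least 0.758, like those of all genes. The median log2 fold change was -0.13 over 13 other Sox genes, -0.12 over 12 Klf genes, -0.13 over 18 ETS genes and -0.04 over 23 Fox genes. Without Sorbinil 3 the medians of these families were -0.95, -0.36, -0.69 and -0.62, against 0.01 over all genes. Without Sorbinil 1 they were 0.21, 0.16, 0.11 and 0.05, against -0.01 over all genes.

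The most abundant tested genes of each family were not called. The glial factors Sox8, Sox9 and Sox2 had log2 fold changes of -0.53 (SE 0.35), -0.16 (SE 0.34) and -0.38 (SE 0.39). Among Klf genes, Klf9 was at -0.11 (SE 0.14), Klf13 at -0.70 (SE 0.37) and Klf12 at 0.50 (SE 0.12). Klf12 had 67.6, 75.4 and 73.4 CPM in DMSO retinas and 109 and 94.6 CPM in Sorbinil 1 and 3, higher in both without overlap but not 2-fold. The ETS genes Elf2, Elk4 and Etv5 were at 0.53 (SE 0.33), 0.59 (SE 0.26) and -0.06 (SE 0.21), and Foxo3 was at 0.17 (SE 0.13).

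**Figure D4:**
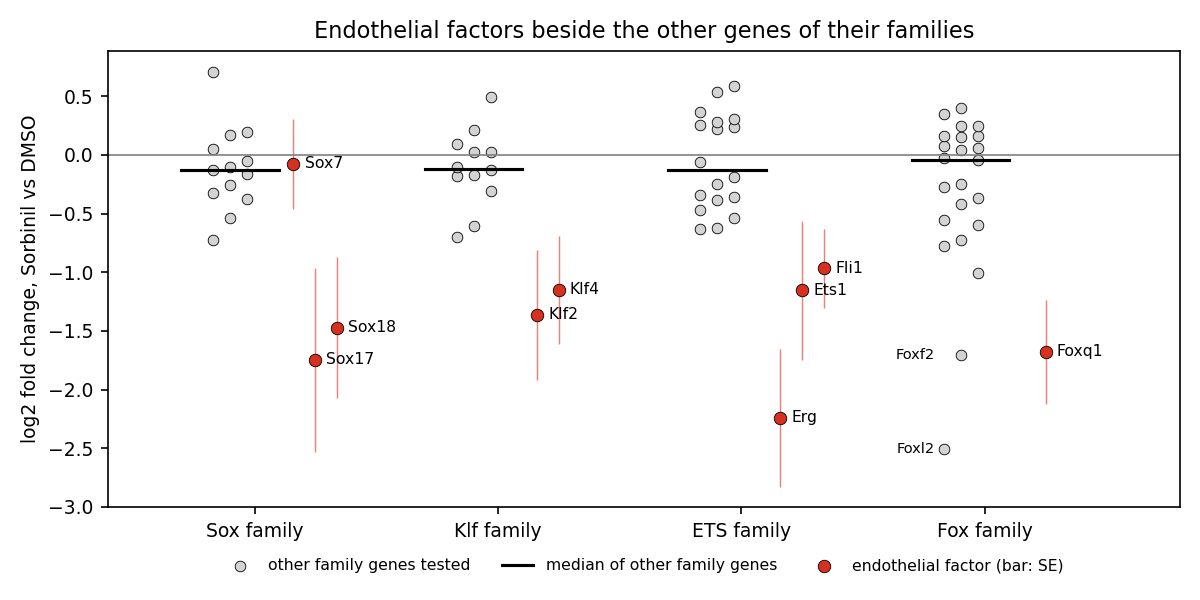
Log2 fold change of Sorbinil against DMSO for the 9 factors (red, bars are SE) and for the 66 other tested genes of the Sox, Klf, ETS and Fox families (grey, bar at the median). Foxl2 (-2.51) and Foxf2 (-1.71) are the lowest grey points and Foxc1, just under Fli1, is the next.

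Upstream of Klf2 and Klf4, the ERK5 and MEF2 genes gave no calls. Of 12 tested genes 0 were called in either direction and 3 had a fitted change below 0, with a median log2 fold change of 0.23. Heg1, a junction receptor that acts on this axis in endothelium, had 169, 177 and 185 CPM in DMSO retinas and 334 and 204 CPM in Sorbinil 1 and 3, with a log2 fold change of 0.60 (SE 0.22). The transcription factors Mef2c and Mef2d were at 0.48 (SE 0.27) and 0.19 (SE 0.20). Both are abundant in neurons, so their retinal RNA is not a measure of vessels. Of the 7 tested genes that Klf2 and Klf4 are known to induce, Thbd, the anticoagulant receptor thrombomodulin, was called lower (1.35% of all genes were), with 2.06 ± 0.56 CPM (SD, n = 3) in DMSO and 0.693 ± 0.603 CPM (SD, n = 2) in Sorbinil retinas. Thbd lost its call without DMSO 1, without DMSO 2 and without Sorbinil 1, and without Sorbinil 3, 7 genes of the list were called, where 17.4% of all genes were. Timp3 and Plpp3 were at -0.47 (SE 0.41) and -0.49 (SE 0.42), and the list's median was -0.66. Of 6 tested genes that these factors are known to repress, 0 were called, with a median of -0.55. Vcam1 was at -0.53 (SE 0.38), F3 at -0.66 (SE 0.30) and Angpt2 at -0.57 (SE 0.42). Without Sorbinil 3 the median of these repressed genes was -1.27 and without Sorbinil 1 it was -0.07, with 8 tested in either fit.

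Known targets of the ETS factors held the most called genes among the pathway lists. Of 20 tested, 10 were called lower and 0 higher, against 1.35% and 0.36% of all genes, with a median log2 fold change of -1.11 and medians of -1.92 in Sorbinil 1 and -0.68 in Sorbinil 3. Cdh5, the endothelial junction cadherin, had 4.41, 4.64 and 1.84 CPM in DMSO retinas and 0.476 and 1.47 CPM in Sorbinil 1 and 3. Robo4, a receptor that stabilises vessels, had 3.01, 2.13 and 1.35 CPM in DMSO and 0.323 and 0.737 CPM in Sorbinil retinas. Vwf, the clotting factor of endothelial granules, had 16.3, 21.0 and 9.25 CPM in DMSO and 1.69 and 6.38 CPM in Sorbinil retinas. For these 3 genes DMSO 3 was the lowest DMSO retina and both Sorbinil retinas were lower still. The other called targets were Eng, Tie1, Tek, Dll4, Emcn, Mmrn2 and Cldn5, with log2 fold changes between -1.88 for Emcn and -1.22 for Dll4. Without Sorbinil 1, 6 of the targets were called (0.912% of all genes), and without Sorbinil 3, 17 were (17.4% of all genes). Without a DMSO retina the count ran from 7 to 11, where 0.867% to 1.51% of all genes were called.

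Of 10 SoxF targets, 4 were called lower (Cldn5, Dll4, Cdh5 and Lef1; 1.35% of all genes) with a list median of -0.68. Without Sorbinil 1, 2 were (0.912% of all genes), and without Sorbinil 3, 6 were (17.4% of all genes). Cldn5, the tight junction claudin of barrier vessels, had 7.87, 7.67 and 4.99 CPM in DMSO and 1.37 and 3.06 CPM in Sorbinil retinas. These lists overlap, since the ETS targets share 8 genes with the endothelial markers and 4 with the SoxF targets. Among 24 genes of Wnt input and the barrier, set beside Foxq1, 5 were called lower (Lef1, Foxf2, Abcb1a, Slco1a4 and Slco1c1) against 1.35% of all genes, with a median of -0.42. Here 2 were called without DMSO 1 (0.867% of all genes), 3 without DMSO 2 (0.894%) and 5 without DMSO 3 (1.51%). The median of this list was -0.04 without Sorbinil 1 and -1.12 without Sorbinil 3. Abcb1a, the efflux pump P-glycoprotein, had 6.19 ± 1.54 CPM (SD, n = 3) in DMSO and 1.67 ± 1.55 CPM (SD, n = 2) in Sorbinil retinas. Of 28 tested other regulators of endothelium, 5 were called lower (Tal1, Gata2, Mecom, Lef1 and Foxf2) against 1.35% of all genes, with a median of -0.35. The count was 2 without DMSO 1 (0.867% of all genes), 1 without DMSO 2 (0.894%) and 5 without DMSO 3 (1.51%). The median of these regulators was -0.10 without Sorbinil 1 and -0.77 without Sorbinil 3. Gata2, which works with ETS factors and Tal1, had 0.838, 0.651 and 0.594 CPM in DMSO and 0.0951 and 0.280 CPM in Sorbinil retinas.

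Markers of vessels and of other cells moved in the same retinas. The 10 endothelial markers had 6 genes called lower (Cdh5, Tie1, Cldn5, Ly6c1, Emcn and Ptprb) and 0 higher, against 1.35% and 0.36% of all genes, with a median of -1.48. Leaving out DMSO 1 gave 4 calls (0.867% of all genes), DMSO 2 gave 5 (0.894%) and DMSO 3 gave 6 (1.51%). The median of these markers was -0.84 without Sorbinil 1 and -2.46 without Sorbinil 3. Their summed level was 189, 186 and 144 CPM in DMSO retinas and 54.3 and 142 CPM in Sorbinil 1 and 3, and no marker was at 0 in every retina. The sum is carried by Flt1, with 125, 125 and 99.7 CPM in DMSO and 35.3 and 109 CPM in Sorbinil retinas. Pecam1 did not follow the factors, with 9.31, 9.47 and 7.43 CPM in DMSO and 9.17 and 5.69 CPM in Sorbinil retinas. Pericyte and smooth muscle markers had 2 of 12 called lower, Acta2 and Des, against 1.35% of all genes, with a median of -0.69. Without Sorbinil 1, 0 of them were called (median -0.26), without DMSO 3 only Acta2 was, and without Sorbinil 3, 10 were (17.4% of all genes). Their sum of 1209 to 1452 CPM in DMSO and 1475 and 863 CPM in Sorbinil 1 and 3 was mostly Vtn.

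Outside the vessels, Sorbinil 1 was low in Müller glia and inner neuron markers and high in rod markers. Müller glia markers summed to between 6737 and 8182 CPM in DMSO retinas and to 2603 and 7067 CPM in Sorbinil 1 and 3, and rod markers to between 81297 and 96107 CPM in DMSO and to 133201 and 68193 CPM in Sorbinil retinas. Microglia markers summed to 181, 210 and 146 CPM in DMSO and to 98.2 and 160 CPM in Sorbinil retinas, with 0 of 10 called and a median of -0.53. Astrocyte markers summed to 141% and 122% of the DMSO mean in Sorbinil 1 and 3, a sum carried by Slc1a2, while their median log2 differences were -1.37 and 0.10. Cone markers summed to 145% and 82.5% of the DMSO mean. Sums of inner retina neurons, at 49.6% and 112% of the DMSO mean in Sorbinil 1 and 3, and of retinal ganglion cells, at 43.8% and 90.7%, were lower in Sorbinil 1. With all 5 retinas no gene was called among the markers of Müller glia (median -0.58), astrocytes (-0.48), rods (0.15), cones (0.15) or inner retina neurons (-0.37). The same held for retinal ganglion cells (-0.68), pigment epithelium and choroid (-0.49), fibroblasts and meninges (0.37) and red blood cells and platelets (0.17). Pigment epithelium and choroid markers summed to 118, 107 and 270 CPM in DMSO 1, 2 and 3. In Sorbinil 1 and 3 these sums were 91.8 and 161 CPM. Fibroblast and meninges markers had median log2 differences of -1.28 and 0.94 in Sorbinil 1 and 3. Without DMSO 3, 1 ganglion cell marker was called lower (1.51% of all genes). Without Sorbinil 3 the medians were -1.45 for Müller glia, -1.38 for astrocytes, -1.29 for inner retina neurons, -1.39 for ganglion cells and -0.99 for microglia. Those of rods and cones were 0.53 and 0.51, and that of endothelial markers was -2.46. Without Sorbinil 1 the Müller glia, astrocyte, inner neuron, ganglion cell and microglia medians were 0.02, 0.10, 0.16, -0.20 and -0.16. Of 5 tested blood leukocyte markers S100a8 was called lower, with 16, 56 and 1 counts in DMSO 1, 2 and 3 and 0 and 1 in Sorbinil 1 and 3, and it was not called without Sorbinil 1, DMSO 1 or DMSO 2. The median of these markers was -0.28. The part of these shifts in the values of the 9 factors was not tested.

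**Figure D5:**
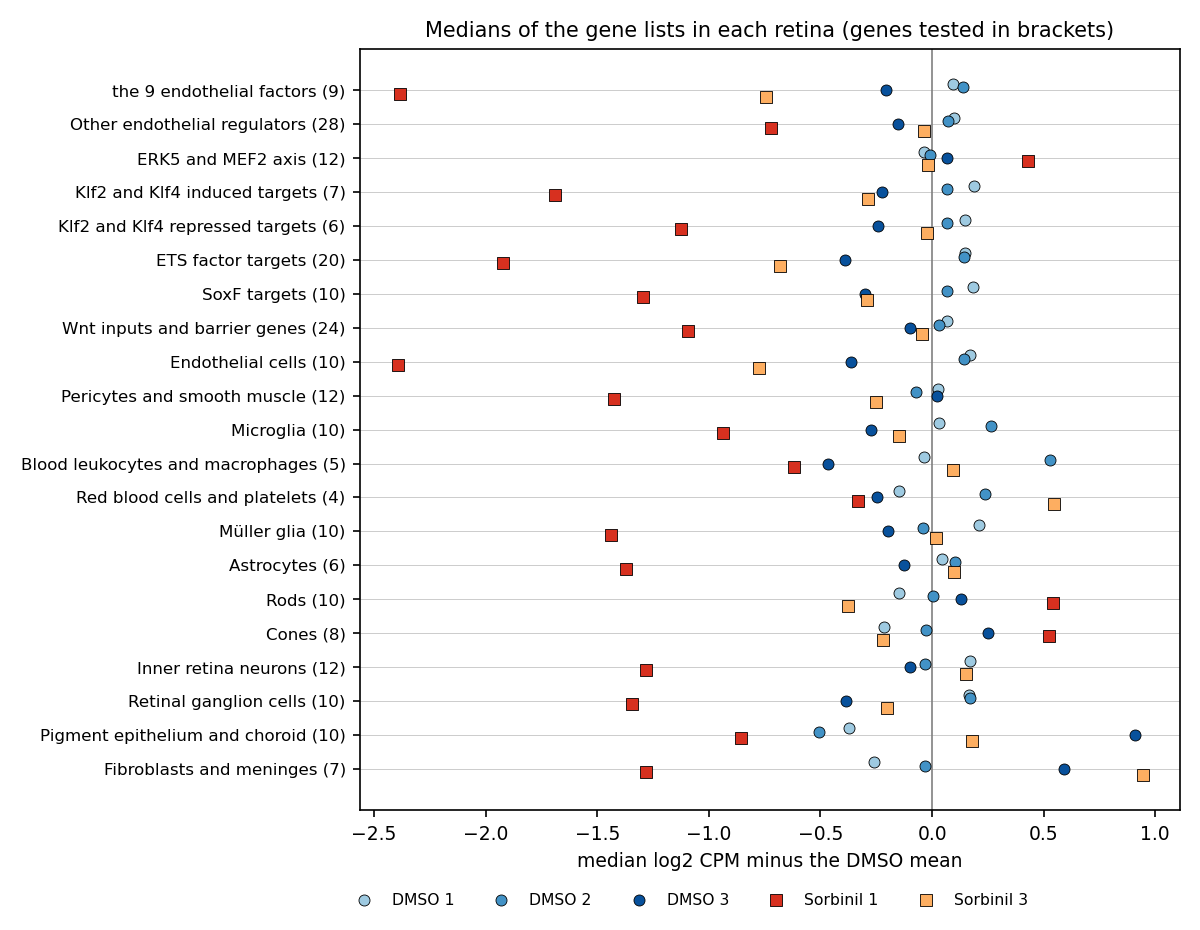
Median log2 CPM minus the DMSO mean of each gene list, in each retina, with the number of tested genes in brackets. Circles are DMSO and squares Sorbinil retinas. The 9 factors and the 10 endothelial markers have the lowest medians in both Sorbinil retinas, -2.39 and -2.40 in Sorbinil 1 and -0.74 and -0.78 in Sorbinil 3.

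The genes whose pattern over the 5 retinas was most like the mean of the 9 factors included receptors and transporters of vessels. Among 13050 genes with at least 1 CPM on average, the closest by Pearson's r were Reck (0.9997), Adgrf5 (0.999), Carns1 (0.999), Adgrl4 (0.998), Abcb1a (0.998), Fezf2 (0.997), Slco1a4 (0.997) and Npdc1 (0.997). With 5 points that share libraries, and Sorbinil 1 far from the rest, 664 genes had an r of at least 0.95, so that the likeness is a description. Adgrf5 and Adgrl4, adhesion receptors of endothelium, had log2 differences of -2.70 and -2.46 in Sorbinil 1 and of -0.98 and -0.83 in Sorbinil 3, about as large as those of the factors. Reck, which takes part in Wnt7 reception at the barrier, had smaller ones of -0.69 and -0.21.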

How the data were processed

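The authors trimmed the reads, aligned them in CLC Genomics Workbench (default settings, GRCm39) and deposited the total counts of each gene, not normalized. The annotation release and the handling of strand and of reads on more than 1 gene are not given in the sources used here. The deposited counts of 3 DMSO and 2 Sorbinil retinas (56096541 to 90288552 in total) were read into edgeR 4.0.16 (R 4.3.3, limma 3.58.1). After filterByExpr on the groups with a minimum count of 10 and TMM scaling, glmQLFit and glmQLFTest were run on the whole table with Benjamini-Hochberg adjustment. The edgeR fit was also run on simulated counts with a common dispersion and no outlying retina, unlike these data. That run says nothing of the other steps.

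The 9 factors and the 24 other gene lists were chosen with earlier results of these data known. Genes named from a list are those called, and where fewer than 3 were called, those with the highest mean CPM until 3 were named. Of the other cells' markers only the called genes, Vtn and Slc1a2 are named. Pecam1, Flt1, Foxc1 and Eps15l1 were named outside this rule, chosen after their values were seen. The 8 genes most like the factors were taken by Pearson's r. Exon lengths and positions came from GENCODE vM39 on GRCm39.

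Alternatives were no filter on low counts or a minimum of 10 in each retina, size factors and the Wald test of DESeq2 1.42.0, scaling by upper quartile or by library size, removal of mitochondrially encoded genes, other thresholds, prior counts and marker references, the replicate block, and leaving out each retina. Counting the factors and list genes called under these fits was added after seeing the data. The retinas are labelled as separate samples, and no pair agreed within sampling noise (the smallest chi-square per degree of freedom was 24.6). Reads carry no molecular identifiers, so intervals cover counting error only.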

Additional observations from a re-analysis of the deposited data

How the results depend on the processing

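The 203 genes called lower became 119 with at least 10 counts in every retina, 129 when the unadjusted p-value had to be 0.05 or less and 0 at an edgeR adjusted p-value under 0.05, and 129 to 2656 when 1 retina was left out. The 54 called higher became 115 with no filter, 29 with at least 10 counts in every retina, 33 with library-size scaling and 0 at the adjusted p-value, and 35 to 247 when 1 retina was left out. Of the 9 factors, 6 were called lower (1.35% of all genes), and 7 by the DESeq2 Wald test (201 of 14992 genes). The number of factors ran from 2 to 8 when 1 retina was left out, where 0.867% to 17.4% of all genes were called. The 8 came from the fit without Sorbinil 3, the one with 17.4%. The median log2 fold change of the 9 factors, -1.36, ran from -2.49 (without Sorbinil 3) to -0.79 (without Sorbinil 1). It stayed between -1.42 and -1.15 under the other scalings, filters and tests. Sox7 ran from -0.44 to 0.20, turning sign without Sorbinil 1. With at least 10 counts in every retina Sox17, Sox18 and Erg had no value, having 3, 9 and 4 counts in Sorbinil 1. The median ratio to endothelial markers of -0.02 turned to 0.0175 with a prior count of 0.5, was -0.60 against pericyte markers and -0.50 against the summed marker CPM, and ran from -0.29 to 0.0588 (without Sorbinil 1) when 1 retina was left out. Library-size scaling moved the median of all genes to -0.11. Where no other construction is named, the cause was not tested.

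With the replicate block (numbers 1 and 3, shared by both groups), 153 of 14992 genes were called lower and 50 higher. The median of the 9 factors was -1.39 and 6 of them were called lower, Ets1 in and Klf4 out. The deviations of retinas of the same number from their group means correlated at -0.243 and -0.125. With only 2 Sorbinil retinas their deviations mirror each other, so these values cannot show whether retinas of equal number share anything.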
